A study of Mus musculus with 173 samples.

Results

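Voltage-gated sodium channels open when a nerve or muscle membrane is depolarized and carry the inward current of the action potential. Each channel is 1 large alpha subunit, which forms the pore, with smaller beta subunits that hold it at the membrane and tune its gating. The 8 genes described here, of 38561 in the table, were taken as named members of the family, with no threshold on a value: 6 of the 8 encode alpha subunits (Scn1a, Scn3a, Scn8a, Scn9a, Scn4a and Scn7a) and 2 encode beta subunits (Scn2b and Scn3b). They were chosen by name, with their tissue levels and their changes in Q175 mice known from these data, so both are given as descriptions. Scn7a goes by the family name but encodes a channel known to respond to extracellular sodium and not to voltage.

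RNA-seq was made from 11 tissues of C57BL/6 mice aged 6 months. The Q175 mice were heterozygous for a knock-in allele with an expanded CAG tract in the mouse huntingtin gene Htt, and the wild-type mice carried no expanded allele. Each genotype had 4 females and 4 males, with 8 Q175 and 8 wild-type libraries in a tissue, except 7 wild-type libraries in gonadal white adipose and 6 in skin. Q175 mice shared cages with Q175 mice, while wild-type mice carried codes of the Q20 line and lived with it, so genotype, housing and colony cannot be told apart.

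Library totals ran from 28 M to 48 M estimated counts (M, mega). Htt was lower in Q175 mice in 11 of 11 tissues, with a change of -0.58 to -0.11 on the log2 scale, and passed the test in 4. Abhd1, a gene singled out after its values were seen, was higher in Q175 mice in 11 of 11 tissues and passed in 9. In the animal numbered here as Q175 male animal 4, from the animal codes in the library names, Abhd1 was not above the highest wild-type library in 10 of 11 tissues. That animal is male 1 in hippocampus, male 3 in brown adipose and heart and male 4 in cerebellum. Calls of members between genotypes are also given without it, while single calls of partner genes are not. In hippocampus, the libraries of Q175 females 3 and 4 held fewer counts from long genes (slopes of log2 level on log2 gene length of -0.32 and -0.23). The 8 genes have implied transcript lengths of 3.88 kb (Scn3b) to 10.46 kb (Scn8a).

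The starts of 3 of the genes are shown because their alpha subunits passed the test in Q175 tissues. Each sequence is the 250 bases before the gene's start, read 5′ to 3′ on the gene's strand from RefSeq (GRCm38.p6), and capitals mark each E-box, CANNTG searched on both strands. The RefSeq table held an entry for 6 of the 8 genes.
Scn4a, chr11:106349391-106349640, minus strand: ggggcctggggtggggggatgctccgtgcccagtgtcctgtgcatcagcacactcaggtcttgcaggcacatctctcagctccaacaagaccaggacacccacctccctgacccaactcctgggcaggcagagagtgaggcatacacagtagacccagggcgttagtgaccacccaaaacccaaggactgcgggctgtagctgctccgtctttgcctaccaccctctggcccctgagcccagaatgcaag
Scn9a, chr2:66634963-66635212, minus strand: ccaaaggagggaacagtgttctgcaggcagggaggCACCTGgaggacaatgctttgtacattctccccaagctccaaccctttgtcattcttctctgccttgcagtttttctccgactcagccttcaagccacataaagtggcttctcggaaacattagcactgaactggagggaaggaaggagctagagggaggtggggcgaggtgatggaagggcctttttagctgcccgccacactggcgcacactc
Scn7a, chr2:66784911-66785160, minus strand: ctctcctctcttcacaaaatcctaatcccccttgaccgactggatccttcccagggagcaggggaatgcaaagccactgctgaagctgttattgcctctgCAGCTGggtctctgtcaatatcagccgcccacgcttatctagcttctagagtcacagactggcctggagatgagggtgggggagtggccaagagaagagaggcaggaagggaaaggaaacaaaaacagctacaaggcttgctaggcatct
An E-box was found in 66.2% of 32851 such windows of all genes. The Scn4a window held no match, the Scn9a window 1 match at 215 bases before the start, and the Scn7a window 1 match at 150 bases before the start. The 3 windows held neither TATAAA, which was present in 12.4% of all windows, nor a CArG box, which was present in 1.47%.

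Levels are given as FPKM, the deposited values scaled to gene length and library total, and the order of tissues is taken from the wild-type medians with the lowest and highest library in brackets. Among the alpha subunits, Scn1a and Scn8a had their highest levels in the 5 brain samples. Scn1a, well known from fast-spiking inhibitory neurons, had a median of 56.4 FPKM in brainstem (37.97 to 67.3), 38.4 in cerebellum (35.3 to 41.4) and 33.4 in hypothalamus/thalamus (23.96 to 41.7). It had 16.1 FPKM in hippocampus (14.9 to 17.1) and 8.04 in corpus callosum (4.12 to 12.95), and a median of 0.0155 or less in the 6 tissues outside the brain. The ranges of the first 3 tissues overlapped from neighbour to neighbour, while hippocampus and corpus callosum stood apart from those above them. Scn8a, the main channel of axon initial segments and nodes of Ranvier in adults, had 45.9 FPKM in hippocampus (44.3 to 48.7), 41.3 in brainstem (29.8 to 47.2) and 41.1 in cerebellum (37.1 to 43.1). Brainstem overlapped both hippocampus and cerebellum, which did not overlap each other. Hypothalamus/thalamus had 25.03 FPKM of Scn8a (19.3 to 30.5) and corpus callosum 17.6 (9.05 to 26.8). Outside the brain Scn8a had its highest median in skin, at 0.807 FPKM (0.381 to 1.26).

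Scn3a and Scn9a had lower brain levels. Scn3a, a channel most abundant before birth in rodents, had 11.2 FPKM in hypothalamus/thalamus (6.76 to 12.7) and 8.90 in hippocampus (7.67 to 9.71), then 6.34 in brainstem (3.37 to 7.66) and 2.65 in corpus callosum (1.38 to 4.56). Cerebellum had 0.352 FPKM of Scn3a (0.286 to 0.401), a range that overlapped those of skin and heart. Scn9a, known from pain-sensing neurons and also expressed in hypothalamus, had 3.79 FPKM in hypothalamus/thalamus (2.28 to 5.24), 1.62 in brainstem (0.972 to 1.82) and 0.402 in hippocampus (0.322 to 0.567). These 3 ranges did not overlap. In gastrocnemius, heart and skin, Scn9a was listed at 0 in 7, 7 and 5 of the 8 Q175 libraries, against 7 of 8, 8 of 8 and 5 of 6 wild-type libraries.

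Scn4a and Scn7a were the alpha subunits of the tissues outside the brain. Scn4a, the skeletal muscle channel, had 98.5 FPKM in gastrocnemius (83.3 to 102.1), followed by 5.55 in heart (4.96 to 7.14), 4.34 in brown adipose (0.0726 to 12.4), 4.19 in skin (1.27 to 6.03) and 1.46 in intestinal white adipose (0.0658 to 3.21). Only gastrocnemius stood apart from the next tissue in that order, and the medians of the 5 brain samples were 0.0186 FPKM or less. Scn7a, known from Schwann cells and from glia of the sodium-sensing organs of the brain, had 33.2 FPKM in gonadal white adipose (23.5 to 46.02) and 15.2 in intestinal white adipose (11.8 to 26.1). Skin, brown adipose and heart followed with 4.28, 3.99 and 3.32 FPKM, and cerebellum was last with 0.141 (0.112 to 0.227).

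The beta subunits were brain genes with different orders. Scn2b, whose product is joined to the alpha subunit by a disulfide bond, had 93.0 FPKM in cerebellum (81.7 to 108), 69.6 in hypothalamus/thalamus (63.4 to 73.9), 56.8 in hippocampus (55.5 to 59.6), 37.8 in brainstem (35.1 to 40.2) and 26.1 in corpus callosum (16.4 to 38). The first 4 of these tissues did not overlap with each other. Scn3b, whose product binds without a covalent bond, had 78.8 FPKM in hippocampus (74.1 to 85.5), apart from the 32.96 in hypothalamus/thalamus (28.3 to 40.03), and then 21.6 in corpus callosum (9.07 to 47.8) and 13.4 in brainstem (9.80 to 14.6). Cerebellum, first for Scn2b, had 1.20 FPKM of Scn3b (0.753 to 1.42). Outside the brain both had their highest median in intestinal white adipose, 1.69 FPKM of Scn2b and 1.64 of Scn3b.

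**Figure D1:**
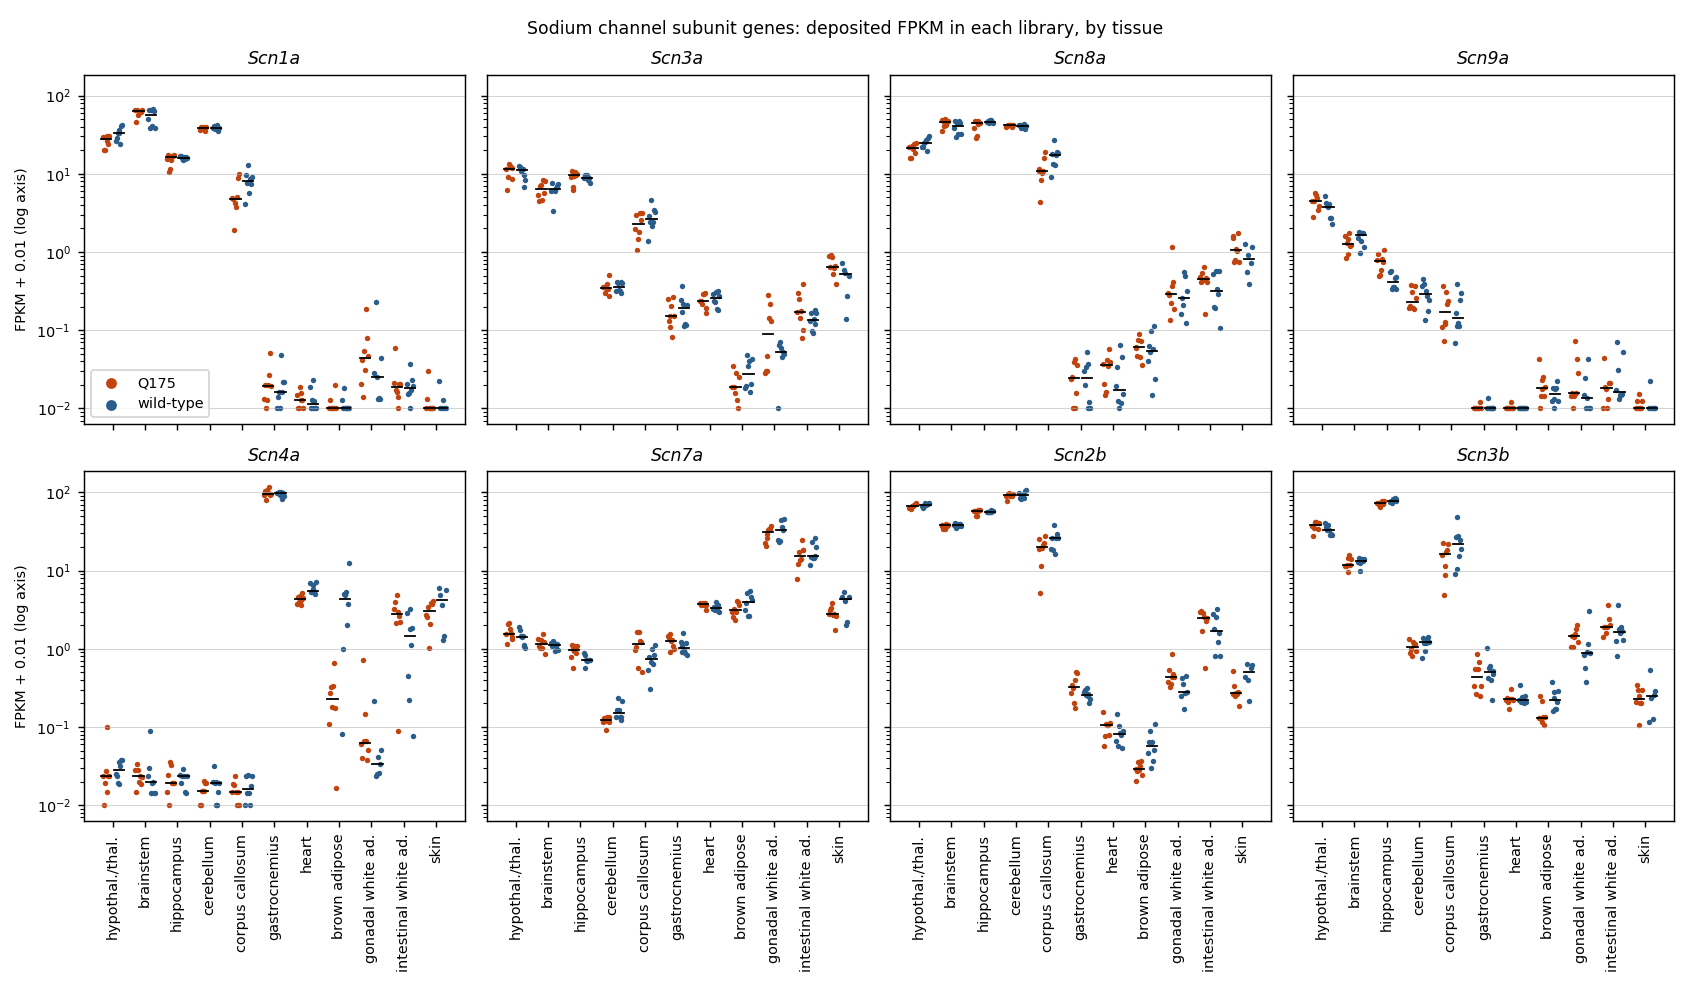
Deposited FPKM (plus 0.01, log axis) of the 8 genes in each library by tissue, with Q175 libraries left of wild-type libraries and a black line at the median. Scn1a, Scn8a and Scn2b separate the 5 brain samples from the other 6 tissues, Scn4a is highest in gastrocnemius (98.5 FPKM in wild-type mice) and Scn7a in gonadal white adipose (33.2 FPKM).

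The mix of the 6 alpha genes is given as the share of each in their summed FPKM. In cerebellum, Scn8a made up 51.5% ± 0.6248 of their summed FPKM in Q175 mice and 50.8% ± 0.728 in wild-type mice (SD, n = 8 each), with Scn1a at 47.6% ± 0.747 in Q175 and 48.3% ± 0.674 in wild-type mice. In hippocampus Scn8a held 61.2% ± 0.963 in Q175 and 63.98% ± 1.07 in wild-type mice. In gastrocnemius Scn4a held 98.6% ± 0.202 in Q175 and 98.7% ± 0.278 in wild-type mice, and in gonadal white adipose Scn7a held 97.8% ± 1.23 in Q175 (n = 8) and 98.7% ± 0.549 in wild-type mice (n = 7). The mix was least alike in brown adipose, where Scn4a held 6.89% ± 4.29 in Q175 mice and 43.4% ± 25.3 in wild-type mice. These shares were not tested, and they refer to these 6 genes and not to the whole family.

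**Figure D2:**
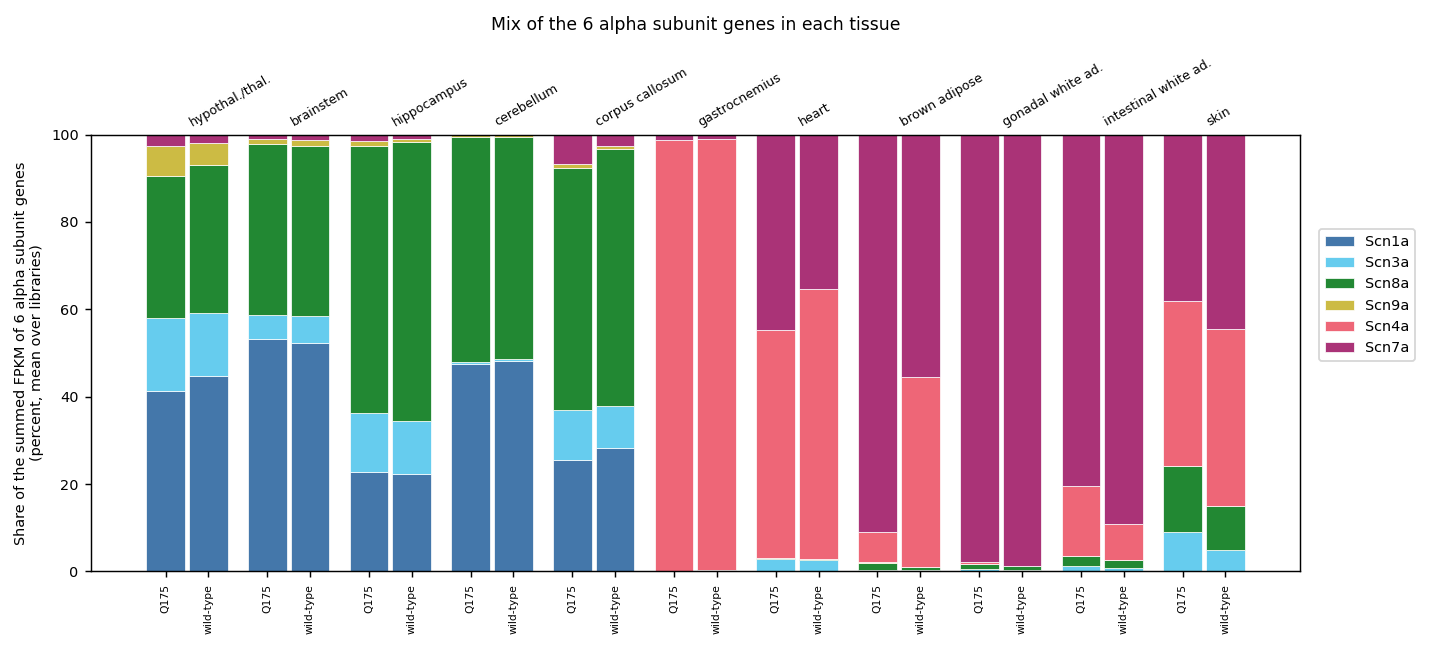
Stacked bars give the mean share (percent) of each of the 6 alpha subunit genes in their summed FPKM, with Q175 left of wild-type in each tissue and from 6 to 8 libraries behind a bar. Scn1a and Scn8a fill most of the brain bars, Scn4a holds over 98% in gastrocnemius, and in brown adipose the Scn4a share is 6.89% in Q175 and 43.4% in wild-type mice.

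Genes with the most similar pattern were sought by the Pearson correlation of wild-type mean log2(FPKM + 0.1) over the 11 tissues, as a description with no test, since the 11 points share libraries and many brain genes follow the same split. The nearest were Slc32a1 for Scn1a (0.999), Dnm1 for Scn8a (0.998), Ankrd6 for Scn3a (0.981), Oprm1 for Scn9a (0.996), Abra for Scn4a (0.977), Col15a1 for Scn7a (0.967), Zfp354c for Scn2b (0.996) and Chrm3 for Scn3b (0.988). Slc32a1 encodes the vesicular transporter of inhibitory transmitters, Oprm1 the mu opioid receptor, Col15a1 a basement membrane collagen and Chrm3 a muscarinic receptor. With a pseudocount of 1 none of the 3 nearest genes of Scn8a or of Scn4a stayed among its 3 nearest, nor with Q175 means, and 13 and 8 of all 24 stayed. With the smaller pseudocount the next were Scrt1 and Hecw1 for Scn1a, Nrcam and Tmem59l for Scn8a, Col25a1 and Zfp853 for Scn3a, Gpr101 and Gpr165 for Scn9a, Carnmt1 and Eno3 for Scn4a, Sec16b and Col4a1 for Scn7a, Syt13 and Zfp940 for Scn2b, and Stxbp6 and Egfem1 for Scn3b. Among the members themselves, Scn8a was closest to Scn2b (0.98) and to Scn1a (0.97), and Scn3a to Scn3b (0.91).

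A change is the log2 ratio of Q175 to wild-type level ± its standard error, fitted by edgeR together with sex, and a gene passed at an adjusted p under 0.05 over all genes tested in its tissue. In all, 67 of the 88 pairs of member and tissue had enough counts to be tested. Of these 67 pairs, 5 passed, 1 higher and 4 lower in Q175 mice, where 6.27% of all 174624 gene and tissue pairs passed, 2.82% as higher and 3.45% as lower. Values were positive in 30 pairs and negative in 37, and the unadjusted p was under 0.05 in 18. Since the genes were chosen with this comparison known, nothing further is read from the count.

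Scn9a was the member that rose, in hippocampus. It had 0.792, 0.945, 0.490 and 0.503 FPKM in Q175 females and 0.578, 0.799, 0.736 and 1.06 in Q175 males, against 0.539, 0.567, 0.322 and 0.350 in wild-type females and 0.350, 0.453, 0.326 and 0.468 in wild-type males. In this tissue 6 of 8 Q175 libraries lay above every wild-type library, and the other two, Q175 females 3 and 4, lay within the wild-type range. The change was 0.75 ± 0.15 (edgeR adjusted p = 0.00986), in a tissue where 4.56% of the genes tested passed. The estimated counts behind it were 156 to 303 in Q175 and 106 to 180 in wild-type libraries. Without Q175 females 3 and 4 the change was 0.90 (adjusted p = 0.000751), without Q175 male 1 it was 0.79 (adjusted p = 0.0118), and with the summed level of 8 neuron markers as a term it was 0.49 (adjusted p = 0.00967). The fit with the neuron marker term called 45.3% of the genes tested in hippocampus. Markers of sensory neurons, the cells best known for this channel, summed to 1.09 to 2.89 FPKM in Q175 and 0.927 to 1.82 FPKM in wild-type hippocampus over 6 genes. Of these markers 2 had enough counts to be tested, and neither passed.

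Scn3b fell in the same tissue by a small amount. It had 73.7, 74.1, 68.7 and 64.6 FPKM in Q175 females and 73.1, 77.2, 70.6 and 76.9 in Q175 males, against 76.4, 76.7, 74.1 and 83.2 in wild-type females and 80.7, 85.5, 81.6 and 76.8 in wild-type males. The groups overlapped, with 6 of 8 Q175 libraries below every wild-type library. The change was -0.14 ± 0.04 (edgeR adjusted p = 0.0346). It was no longer called without any 1 of 9 libraries (adjusted p = 0.0558 to 0.078), which were Q175 female 4, Q175 males 1, 3 and 4, wild-type females 2 and 4 and wild-type males 1, 2 and 3. Of these, Q175 male 1 is the animal apart in Abhd1. Beside it, the summed level of 6 forebrain excitatory neuron markers was 1568 to 1871 FPKM in Q175 and 1825 to 2101 FPKM in wild-type hippocampus, with 3 of the 6 called lower. With the sum of the 8 neuron markers as a term the change was -0.16 (adjusted p = 0.0067), in the fit that called 45.3% of all genes tested. In bulk tissue, fewer cells of a type and less RNA per cell cannot be told apart.

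The other 5 members measured in hippocampus did not pass. Scn8a had 28.7 to 47.5 FPKM (median 44.04) in Q175 libraries and 44.3 to 48.7 FPKM (median 45.9) in wild-type libraries, a change of -0.24 ± 0.09 (adjusted p = 0.156). Its lowest values, 28.7 and 30.8 FPKM, were those of Q175 females 3 and 4, which were also the lowest for Scn1a (10.6 and 11.4 FPKM, against 15.03 or more in every other Q175 library). Scn7a had 0.561 to 1.10 FPKM (median 0.960) in Q175 and 0.561 to 0.879 FPKM (median 0.702) in wild-type hippocampus, a change of 0.33 ± 0.12 (adjusted p = 0.131). Without Q175 females 3 and 4 the Scn7a change was 0.41 and passed (adjusted p = 0.0229). With the length trend removed Scn7a and Scn3a both passed as higher, in a fit where 7.6% of the genes tested passed. Over 12 alternative fits Scn7a ran from 0.11 to 0.46 and Scn3a from -0.16 to 0.16. Scn1a, Scn3a and Scn2b had changes of -0.12 ± 0.09, 0.02 ± 0.09 and -0.06 ± 0.04. Scn8a passed without Q175 female 2 (-0.31, adjusted p = 0.0445), and it was -0.07 with the length trend removed and -0.10 without Q175 females 3 and 4, which did not pass (adjusted p = 0.152 and 0.266). The neuron marker term gave -0.44 for Scn8a, -0.28 for Scn1a and -0.12 for Scn2b, adjusted p = 0.000783, 0.00962 and 0.0239, in the fit that called 45.3% of all genes.

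Scn7a fell in cerebellum, the tissue with the lowest wild-type median of it. Its level was 0.0819 to 0.126 FPKM (median 0.112) in Q175 libraries and 0.112 to 0.227 FPKM (median 0.141) in wild-type libraries, from 18 to 30 and 26 to 53 estimated counts. The groups overlapped, 4 of 8 Q175 libraries lay below every wild-type library, and the highest 2 values were those of wild-type female 3 (0.227) and wild-type male 4 (0.202). The change was -0.47 ± 0.16 (edgeR adjusted p = 0.0494), where 16.1% of the genes tested in cerebellum passed. It was lost without any 1 of 12 libraries, each of the 8 Q175 libraries, or females 2, 3 or 4 or male 4 of the wild type (adjusted p = 0.0501 to 0.11), by DESeq2 (adjusted p = 0.0766), and with no filter on low counts (adjusted p = 0.0716). Without Q175 male 4, the animal apart in Abhd1, it was -0.47 (adjusted p = 0.0779). The other 6 members tested in cerebellum did not pass, with changes from -0.20 ± 0.14 for Scn9a to 0.02 ± 0.03 for Scn8a. Oligodendrocyte markers, 8 genes, summed to 1379 to 1889 FPKM in Q175 and 1969 to 2387 FPKM in wild-type cerebellum and all 8 fell. Whether that has a part in the Scn7a change was not tested.

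Scn4a fell in heart, where its level is far below that of skeletal muscle. It had 3.76, 4.56, 3.90 and 4.68 FPKM in Q175 females and 4.15, 3.66, 5.22 and 4.46 in Q175 males, against 6.94, 5.33, 5.36 and 5.73 in wild-type females and 6.51, 5.26, 4.96 and 7.14 in wild-type males. All but Q175 male 3 lay below every wild-type library, so the groups overlapped by 1 library. The change was -0.44 ± 0.07 (edgeR adjusted p = 0.0386), in a tissue where 8 of 14567 genes (0.0549%) passed. Over 16 left-out libraries the change stayed between -0.47 and -0.38, but the call was lost in 12 cases (adjusted p = 0.0507 to 0.106), in all cases but those of Q175 male 3, of females 1 and 2 of the wild type and of wild-type male 3. Without Q175 male 3, the animal apart in Abhd1, it was -0.47 (adjusted p = 0.0158). Cardiomyocyte markers, 8 genes, summed to 18300 to 22470 FPKM in Q175 and 16590 to 20840 FPKM in wild-type heart, skeletal muscle markers, 12 genes, to 573 to 839 FPKM in Q175 and 562 to 943 FPKM in wild-type heart, and none of the tested genes of either list passed. The other 4 members tested in heart ran from -0.11 ± 0.15 for Scn3b to 0.21 ± 0.25 for Scn2b, and none passed.

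In brown adipose Scn4a had the largest change of any member. It had 0.1002, 0.266, 0.316 and 0.171 FPKM in Q175 females and 0.328, 0.657, 0.165 and 0.0066 in Q175 males, against 0.0726, 0.995, 5.08 and 4.92 in wild-type females and 5.25, 2.02, 3.76 and 12.4 in wild-type males. Wild-type female 1 lay within the Q175 range and the other 7 wild-type libraries above it. The change was -3.75 ± 0.76 (edgeR adjusted p = 0.0147), in a tissue where 5.41% of the genes tested passed. The 12 skeletal muscle fibre markers, among them the actin Acta1 and the creatine kinase Ckm, summed to 3.31 to 492 FPKM (median 244) in Q175 and 13.4 to 13620 FPKM (median 2533) in wild-type brown adipose, and 6 of the 12 passed as lower. Wild-type female 1, with the lowest Scn4a of its group, had the lowest muscle sum of its group, 13.4 FPKM, and Q175 male 4, with 0.0066 FPKM of Scn4a, had the lowest of all, 3.31 FPKM. With the muscle sum as a term the Scn4a change was -1.04 (adjusted p = 0.121). With the sum of 6 fibroblast markers as a term it was -3.49 (adjusted p = 0.912). By edgeR 0 of 14590 genes were called in either fit, with 1880 at an unadjusted p under 0.05 in the fit with the muscle term and 639 in the fit with the fibroblast term, against 790 called with neither term. Without Q175 male 3, the animal apart in Abhd1, it was -3.63 (adjusted p = 0.0384).

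Scn3b was the other member near the threshold in brown adipose, with 0.0953 to 0.237 FPKM (median 0.122) in Q175 and 0.152 to 0.364 FPKM (median 0.212) in wild-type mice, a change of -0.69 ± 0.22 (adjusted p = 0.0907). Scn7a and Scn8a had changes of -0.22 ± 0.13 and 0.13 ± 0.38 there.

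**Figure D3:**
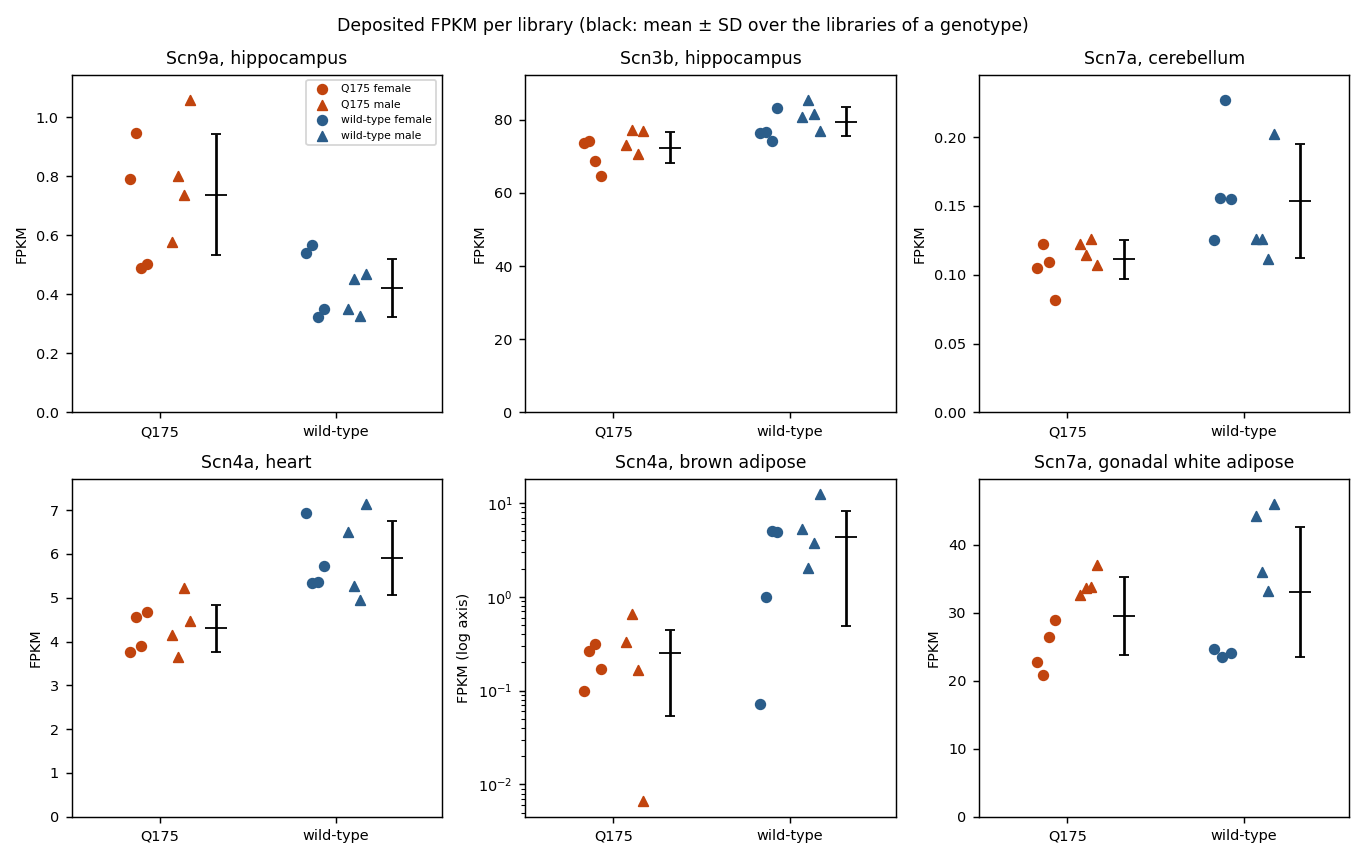
Deposited FPKM per library (circles females, triangles males; black, mean ± SD) for the 5 pairs that passed between genotypes and for Scn7a in gonadal white adipose, with Q175 left of wild-type; the brown adipose panel has a log axis. Scn9a in hippocampus has 6 of 8 Q175 libraries above every wild-type library, and Scn4a in heart has all but Q175 male 3 below every wild-type library.

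In intestinal white adipose, Scn4a varied among the libraries of both genotypes. Its levels were 0.0785 to 4.92 FPKM (median 2.82) in Q175 and 0.0658 to 3.21 FPKM (median 1.46) in wild-type mice, a change of 0.83 ± 0.70 that did not pass (adjusted p = 0.672). The 12 muscle fibre markers summed to 6.79 to 25.8 FPKM in Q175 and 7.49 to 16.7 FPKM in wild-type libraries. The 5 lymphocyte markers summed to 8.27 to 823 FPKM in Q175 and 41.7 to 691 FPKM in wild-type libraries. The 4 libraries with the lowest lymphocyte sums, Q175 male 2 (8.27) and, of the wild type, male 4 (41.7), female 3 (58.5) and female 2 (179), were also the 4 with the least Scn4a, at 0.0785, 0.0658, 0.214 and 0.433 FPKM. Scn2b was lowest in 3 of the same libraries, with 0.551 FPKM in Q175 male 2, 0.811 in wild-type male 4 and 0.799 in wild-type female 3. No gene at all passed between genotypes in this tissue (0 of 16686 by edgeR, 1297 at an unadjusted p under 0.05).

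**Figure D4:**
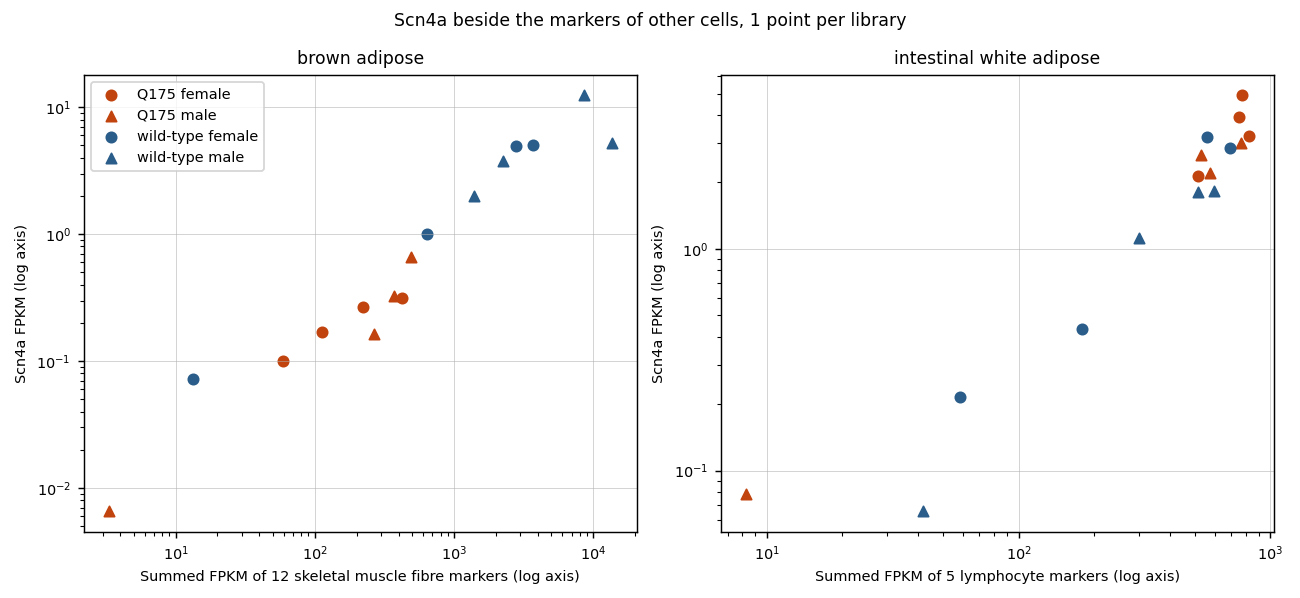
Scn4a FPKM against the summed FPKM of 12 skeletal muscle fibre markers in brown adipose (left) and of 5 lymphocyte markers in intestinal white adipose (right), 1 point per library, all axes log. Scn4a is low where the marker sum is low in both panels; in brown adipose 7 of 8 wild-type libraries lie above all Q175 libraries.

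In the remaining tissues no member passed by edgeR as fitted above. Scn7a in gonadal white adipose passed in 3 of 10 alternative fits, DESeq2 among them, with changes from -0.47 to -0.095 over the 10. That gene had 20.9 to 37.05 FPKM (median 30.8) in Q175 and 23.5 to 46.02 FPKM (median 33.2) in wild-type libraries, a change of -0.26 ± 0.10 (adjusted p = 0.0595, and 0.0311 by DESeq2), where 32.1% of the genes tested passed. It passed as well without Q175 female 4 (adjusted p = 0.0256) and without wild-type male 3 (adjusted p = 0.0391). Fibroblast markers moved the other way, with sums of 1197 to 1636 FPKM in Q175 and 572 to 1261 FPKM in wild-type gonadal adipose and 5 of 6 genes higher. The other 5 members tested there did not pass, with changes from 0.11 ± 0.36 for Scn8a to 0.96 ± 0.73 for Scn4a. In hypothalamus/thalamus, where 0.574% of the genes tested passed, Scn1a had 19.9 to 30.8 FPKM in Q175 and 23.96 to 41.7 FPKM in wild-type mice (-0.38 ± 0.13, adjusted p = 0.218) and Scn8a 15.9 to 24.9 FPKM in Q175 and 19.3 to 30.5 FPKM in wild-type mice (-0.34 ± 0.12, adjusted p = 0.245). The lowest values of both genes were those of Q175 females 2 and 3 and male 3 and of wild-type male 2, whose slopes on gene length were -0.31, -0.15, -0.12 and -0.15 and the only ones below 0 in this tissue. With the length trend removed the changes were -0.25 for Scn1a and -0.19 for Scn8a (adjusted p = 0.136 and 0.179). The other 5 members there were Scn2b (-0.11 ± 0.05), Scn3a (-0.01 ± 0.14), Scn7a (0.19 ± 0.12), Scn9a (0.28 ± 0.16) and Scn3b (0.14 ± 0.09). In corpus callosum, where 0.0544% passed, the values were -0.66 ± 0.28 for Scn1a, -0.65 ± 0.24 for Scn8a, -0.61 ± 0.34 for Scn3b and 0.59 ± 0.26 for Scn7a, with adjusted p from 0.221 to 0.334. The 8 neuron markers there summed to 198 to 1049 FPKM in Q175 and 514 to 1158 FPKM in wild-type libraries, none of the 8 passed, and their median change was -0.56.

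In skin, where 6.53% passed, Scn2b had 0.175 to 0.509 FPKM in Q175 and 0.206 to 0.630 FPKM in wild-type mice (-0.73 ± 0.26, adjusted p = 0.0944), and Scn3a 0.376 to 0.893 FPKM in Q175 and 0.127 to 0.708 FPKM in wild-type mice (0.61 ± 0.25, adjusted p = 0.128). The 2 lowest Scn3a values were those of wild-type males 1 (0.127) and 2 (0.266), the libraries with the steepest fall on gene length in skin (slopes of -0.16 and -0.18), and with the length trend removed the change was 0.59 (adjusted p = 0.105). Scn7a had 1.75 to 3.86 FPKM in Q175 and 2.03 to 5.29 FPKM in wild-type skin (-0.39 ± 0.17, adjusted p = 0.145). Scn8a, Scn4a and Scn3b had changes of 0.32 ± 0.22, -0.35 ± 0.38 and -0.18 ± 0.34. The 6 keratinocyte markers summed to 16370 to 19710 FPKM in Q175 and 6470 to 13600 FPKM in wild-type skin with 4 of 6 called higher, and their part in these values was not tested. In brainstem, where 3.07% passed, the 7 values ran from -0.27 ± 0.17 for Scn9a to 0.18 ± 0.13 for Scn8a, and none had an unadjusted p under 0.05. Gastrocnemius, the tissue with most Scn4a, had 79.7 to 116 FPKM of it in Q175 and 83.3 to 102.1 FPKM in wild-type mice, a change of -0.03 ± 0.06, and the other 4 members tested ran from -0.20 ± 0.27 for Scn3b to 0.32 ± 0.23 for Scn2b. There 0.0213% of the genes tested passed.

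**Figure D5:**
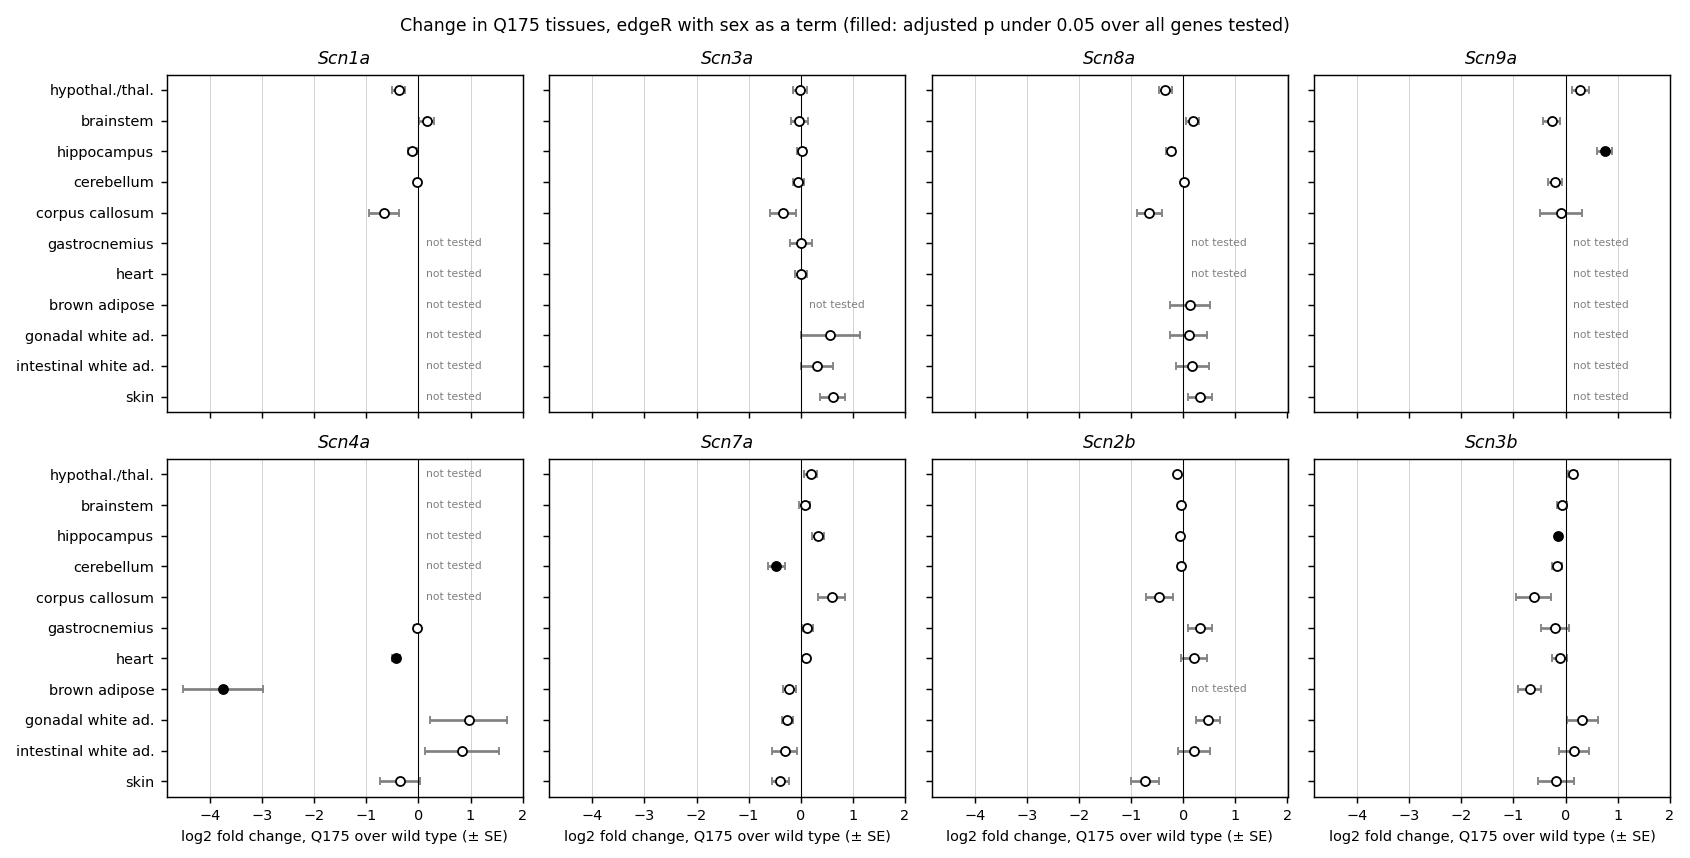
Log2 fold change of Q175 over wild type with its standard error (horizontal axis) for each gene in each tissue, with filled points for an edgeR adjusted p under 0.05 over all genes tested. The filled points are Scn9a (0.75) and Scn3b (-0.14) in hippocampus, Scn7a (-0.47) in cerebellum and Scn4a in heart (-0.44) and brown adipose (-3.75).

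Whether the change in Q175 mice differed between tissues was tested over the libraries of all 11 tissues with limma voom and an F-test, with the animal as a block. The difference passed for Scn4a (adjusted p = 5.76e-07) and Scn7a (adjusted p = 0.0142), 2 of 8 members, where 31.5% of 20662 genes passed. This fit shares the residual spread of a gene over all tissues, although the spread differs between tissues. The standard error was 0.12 for Scn7a in intestinal white adipose, against 0.24 by edgeR, and 0.30 for Scn4a in heart, against 0.07 by edgeR. The Scn7a call was lost without Q175 female animal 3 (adjusted p = 0.072), Q175 male animal 1 (0.0626) or wild-type female animal 3 (0.065). The F-test also took in tissues where a member had too few counts to be tested by edgeR. For Scn9a there were 6 such tissues, with standard errors of 0.57 to 0.71. For Scn4a there were 5, with standard errors of 1.376 or more. The F-test result for Scn9a is therefore not a comparison of its 5 tested tissues alone. For Scn9a, called by edgeR in hippocampus alone, the difference over all 11 tissues did not pass (adjusted p = 0.362), nor did it for Scn3b (adjusted p = 0.909). For Scn1a, Scn3a, Scn8a and Scn2b it was 0.615 or higher.

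Sex was not used in choosing the genes. Scn7a in gonadal white adipose was the member that passed between males and females, 1 of 67 pairs, with 10 at an unadjusted p under 0.05, where 5.82% of all pairs and 29.8% of the genes in gonadal adipose passed. Among males it had 32.6, 33.6, 33.7 and 37.05 FPKM in Q175 and 44.3, 35.99, 33.2 and 46.02 FPKM in wild-type mice, and among females 22.8, 20.9, 26.4 and 29.01 FPKM in Q175 and 24.6, 23.5 and 24.1 FPKM in wild-type mice. Every male library lay above every female library in this depot. The labels name it as fat around the gonad, a different organ in each sex, so sex and site cannot be told apart. The change of males over females was 0.45 ± 0.10 (edgeR adjusted p = 0.00351), and it passed without any 1 of the 15 libraries, at 0.41 to 0.51. Markers of epididymis, tissue of the male tract next to this depot, summed over 7 genes to 0.441 to 2394 FPKM in males and 0.0279 to 3.16 FPKM in females. Schwann cell markers, 8 genes, separated the sexes the other way, with sums of 2.08 to 5.90 FPKM in males and 5.95 to 8.79 FPKM in females. The part of either list in the Scn7a level was not tested. The difference of the Q175 change between sexes passed for 0 of 67 pairs by edgeR, with 3 at an unadjusted p under 0.05, and for 0 by DESeq2 and by limma on FPKM, where 0.0212% of all pairs passed.

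The channels work with a set of partners at the axon initial segment and node, and 19 such genes were followed, among them the beta subunit Scn4b, the scaffold genes Ank3 and Sptbn4, the adhesion genes Nfasc, Nrcam, Cntn1, Cntn2 and Cntnap1, the intracellular Fgf11, Fgf12, Fgf13 and Fgf14, the ubiquitin ligase Nedd4l and the potassium channel genes Kcnq3, Kcna1, Kcna2 and Kcnab2. Of 183 tested pairs 21 passed, 6 higher and 15 lower in Q175 mice, and 56 had an unadjusted p under 0.05, where 6.27% of all pairs passed. In hippocampus 3 of 19 fell and none rose, at a median change of -0.13 over the 19 and 0.01 over all genes, of which 4.56% passed. Scn4b, which speeds recovery of the channel and gives resurgent current, had 1.93 to 3.44 FPKM (median 2.95) in Q175 and 3.89 to 5.50 FPKM (median 4.67) in wild-type hippocampus, with no overlap, a change of -0.75 ± 0.09 (edgeR adjusted p = 0.000334). Kcnab2 had 157 to 177 FPKM in Q175 and 184 to 206 FPKM in wild-type hippocampus, also with no overlap (-0.24 ± 0.03). Kcna1 changed by -0.32 ± 0.08.

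Cerebellum had the most partner calls, 9 of 19, with 7 lower and 2 higher, where 16.1% of all genes tested passed. Scn4b changed by -0.37 ± 0.06 (edgeR adjusted p = 0.000495) with 19.3 to 24.3 FPKM in Q175 and 23.8 to 31.1 FPKM in wild-type cerebellum, Kcnab2 by -0.15 ± 0.03 and Nedd4l by 0.17 ± 0.03. In brown adipose, where 5.41% of all genes passed, 4 of 13 fell, Fgf13 (-1.95 ± 0.40), Scn4b (-3.30 ± 0.65), Ank3 (-1.09 ± 0.26) and Nrcam (-0.83 ± 0.21), beside the lower muscle marker sum given for Scn4a. In the fit with the muscle term, which called no gene, they were -0.87 for Fgf13, -1.19 for Scn4b, -0.52 for Ank3 and -0.73 for Nrcam (adjusted p = 0.087 to 0.412). Scn4b had 0.106 to 1.006 FPKM there in Q175 and 0.330 to 13.96 FPKM in wild-type mice. In gonadal adipose, where 32.1% of all genes passed, 3 of 17 rose, Kcnab2 (0.82 ± 0.16), Nedd4l (0.36 ± 0.10) and Ank3 (1.55 ± 0.52), and single calls were Cntn2 in brainstem (0.28 ± 0.07) and Nrcam in skin (-1.01 ± 0.28).

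Between sexes 12 of the 183 partner pairs passed, 11 lower and 1 higher in males. Of the 12, 8 were in gonadal adipose, where sex and site cannot be told apart. Of all gene and tissue pairs 5.82% passed between sexes, and of the genes tested in gonadal adipose 29.8%. Among those lower, Fgf13 had a change of males over females of -1.84 in gonadal adipose and -0.30 in heart (edgeR adjusted p = 2.73e-05 and 0.000192, where 11.4% of the genes tested in heart passed between sexes), and Cntnap1 one of -0.79 in gonadal adipose (adjusted p = 3.85e-05).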

How the data were processed

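RNA-seq libraries of 16 mice and 11 tissues, 173 in all, were grouped by the labels' genotype, sex and tissue. The authors deposited 2 values per gene and library: estimated counts, of which 24.6% of the non-zero values lay more than 0.01 from a whole number, and FPKM. CASAVA 1.8.2 is named in the submitters' processing notes; the sources used here name no aligner, counter, build, annotation or strand setting. Of 38561 genes, 36639 (95%) had a symbol in the files or tables used here.

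Estimated counts were rounded and tested in each tissue by edgeR 4.0.16 (filter on low counts, TMM, quasi-likelihood, sex and genotype as terms, Benjamini-Hochberg adjustment, threshold 0.05), under R 4.3.3. The difference between tissues used limma 3.58.1, and DESeq2 1.42.0, other scalings, filters and terms and left-out libraries were alternatives. Code was checked on simulated data. P-values measure the spread between animals. Markers were summed as FPKM. The 8 members and all gene lists were chosen with earlier results of these data known. The rule names all 8 members in every tissue, and the text gives some of them only as a range over members, beside the plots of all of them; genes of like pattern are the 3 highest correlations among genes with a wild-type mean of at least 1 FPKM in a tissue; partner genes are up to 4 called pairs per tissue with the smallest p, and sex examples and Abhd1 were chosen after their values were seen. Some results of partner genes that this rule names are not reported here.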

Additional observations from a re-analysis of the deposited data

Results flagged for a closer look

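A sample was singled out where its gap to the nearest other sample of its genotype and tissue was large against the range of that group, by Dixon's criterion. This held in 16 of 134 groups (11.9%). Chance alone gives about 1 in 20 for independent groups of normal values. Raw FPKM need not be normal and the genes share libraries, so these rates cannot be compared directly. No explanation was weighed.

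In brain, Scn1a in brainstem was 46 FPKM in Q175 female 2, with the next library at 56.6, and in wild-type brainstem female 3 Scn3a was 3.37 FPKM (next 5.99) and Scn3b 9.80 FPKM (next 12.7). That wild-type library is one whose levels fell with gene length. Scn3a in cerebellum was 0.501 FPKM in Q175 male 3 (next 0.374).

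In gonadal white adipose, Q175 male 1 had 1.14 FPKM of Scn8a (next 0.399) and 0.849 of Scn2b (next 0.531), and Q175 female 3 had 0.700 FPKM of Scn4a (next 0.138). Wild-type female 1 had 0.205 FPKM of Scn4a (next 0.0408) and was listed at 0 for Scn3a, and wild-type male 3 had 3.01 FPKM of Scn3b (next 1.14). In intestinal white adipose, Scn3b was 3.58 FPKM in Q175 male 2 (next 2.41) and 3.67 in wild-type female 3 (next 1.92). Both are among the 4 libraries of that depot with the lowest lymphocyte sums.

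In heart, Scn7a was 3.16 FPKM in Q175 male 4 (next 3.61) and Scn3b 0.337 FPKM in wild-type female 2 (next 0.237). Scn2b in skin was 0.509 FPKM in Q175 female 2 (next 0.321). Scn4a in brown adipose was 12.4 FPKM in wild-type male 4 (next 5.25).

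The test of a Q175 change that differs between tissues passed for Scn4a (limma voom adjusted p = 5.76e-07) and Scn7a (adjusted p = 0.0142), where 31.5% of all genes tested passed. The Scn7a call was lost without Q175 female animal 3, Q175 male animal 1 or wild-type female animal 3. With only the genes kept in all tissues, a filter that leaves out Scn4a, 1 member passed.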

How the results depend on the processing

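Of the 5 member calls, only Scn9a in hippocampus passed in every alternative fit (0.28 to 0.90) and without each of the 16 libraries of that tissue (0.67 to 0.84). The 0.28 is from limma on log2(FPKM + 1), where the added 1 shrinks changes at low FPKM. The other member calls kept their direction. Beside the losses without 1 library given above, Scn4a in heart lost its call in 7 other fits (adjusted p = 0.0581 to 0.215), Scn7a in cerebellum in 6 (0.0513 to 0.221), and Scn4a in brown adipose and Scn3b in hippocampus in 4 each (0.0834 to 0.912 and 0.0757 to 0.112); the cause was not tested. The lane code is a part of the library names, and what it marks is not stated. Libraries with names of another form were pooled as 1 level. In gonadal adipose that term left 561 of 16049 genes called, against 5148 without it. Member calls numbered 5, against 3 with no filter on low counts, 2 with lane code as a term and 1 with summed fibroblast markers as a term (chosen after seeing the data). Their number was 3 by limma on log2(FPKM + 1), and 2 to 7 without 1 library or animal. It was 2 without Q175 male animal 1 or 3 or wild-type female animal 4 or male animal 3, and 3 without Q175 female animal 1, Q175 male animal 2 or 4, wild-type female animal 2 or wild-type male animal 4. Calls higher in Q175 mice numbered 1, against 3 with the length trend removed, 2 without the libraries that fall with length, and 1 to 2 without 1 library or animal. Calls lower numbered 4, against 2 with no filter, 1 with lane code, 0 with fibroblast markers (edgeR, all genes tested) and 2 by limma, and 1 to 5 without 1 library or animal. Partner calls numbered 21, against 13 with lane code, 11 with fibroblast markers and 32 by DESeq2, and 14 to 25 without 1 library or animal. Calls between sexes numbered 1, against 2 with no filter, 2 by limma and 3 by DESeq2, and 1 to 3 without 1 library or animal. Sex by genotype calls numbered 0, and 0 to 3 without 1 library or animal. Tissue differences numbered 2, and 1 to 2 without 1 animal. With only the genes kept in all tissues they numbered 1, but that filter leaves out Scn4a, which had too few counts in 5 tissues. Replicate numbers did not pair the samples: of 85 same-numbered pairs, 35 had a correlation of deviations over 0.1 and 28 one under -0.1. With the replicate block, member calls numbered 2 (1 lower) and partner calls 12. In hippocampus, Scn1a turned to 0.016 with the length trend removed and 0.011 without the libraries that fall with length, and Scn3a to -0.16 with neuron markers as a term and ranged from -0.045 to 0.071 without 1 library, below 0 in 4 of 16 cases. Genes with few counts, such as Scn7a in cerebellum at 18 to 53 counts, are limited by depth.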
